A study of Homo sapiens with 96 samples.

Results

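The genes described here make ribosomes. The list holds 40 nucleolar and rRNA processing genes, and 34 of them had a probe set assigned to that gene alone, out of 19775 genes measured. NOP56, DKC1, BOP1 and PPAN were left out because their probe sets are annotated to several genes, and GNL3 and DDX18 because no probe set is listed under the symbol. Where a gene had several probe sets, the one brightest on average across the HaCaT constructs was used. All 34 measured members had a mean at or above the median gene (6.10 on the log2 scale).

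Total RNA was hybridised to 96 Affymetrix human expression arrays, of which 89 came from constructs of HaCaT, a spontaneously immortalized human keratinocyte line. HaCaT-Mock is the control, HaCaT-EGFR overexpresses the receptor EGFR, and HaCaT-HRAS and HaCaT-PIK3CA carry mutant, activating forms of the GTPase HRAS and of the catalytic PI3K subunit. The constructs were driven by the CMV promoter of a lentiviral vector and cells were selected with puromycin, with no cloning step described, so the transgene is on throughout and not under its own promoter. Each line received PBS (3 arrays, 2 in HaCaT-EGFR), afatinib at 10 nM, gefitinib at 100 nM or cetuximab at 100 nM (3 arrays each, 2 for gefitinib in HaCaT-PIK3CA). Afatinib is an irreversible kinase inhibitor of the ERBB family, gefitinib reversibly inhibits the EGFR kinase, and cetuximab is an antibody that keeps ligands off the receptor. Each line also received siRNA against EGFR (siEGFR) or scramble siRNA (3 arrays each), and a further set combined scramble siRNA with PBS or with each inhibitor. The other 7 arrays were 2 each of SCC1, SCC25 and FaDu, which are head and neck squamous carcinoma lines, and 1 of unmodified HaCaT-Parent cells. In these cultures, less of a transcript per cell and fewer cells that carry it cannot be told apart.

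Ribosomes are assembled in the nucleolus, where RNA polymerase I copies the rRNA genes into a long precursor. Small nucleolar ribonucleoproteins (snoRNPs) modify this precursor, the box C/D particles by methylation and the box H/ACA particles by pseudouridylation. The small subunit processome then folds and cuts the part that becomes the 40S subunit, and a separate set of factors, among them the PeBoW complex of PES1, BOP1 and WDR12, builds the 60S subunit. Growth factor signalling through MAPK and PI3K is known to stimulate ribosome synthesis, and MYC is known as a transcriptional activator of many of these genes.

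MYC binds the E-box CACGTG, a palindrome that reads the same on both strands. Promoter windows of 300 bases (250 before to 50 after the gene start, RefSeq GRCh38.p14) were listed for 33 of the 40 genes. CACGTG stood in 12 of these 33 windows (36.4%), against 2548 of 35116 windows of all genes (7.26%). That set is larger than the 19775 genes measured. The members were not compared with genes of like level or base content. The stretches below run 5′ to 3′ from 120 bases before the start base to 29 after it. They are shown for 3 members with the E-box close to the start, WDR43 (chr2:28894547-28894696, + strand), FBL (chr19:39846350-39846499, - strand) and MRTO4 (chr1:19251685-19251834, + strand), and for the pair of members that fell most under the inhibitors, LYAR (chr4:4290125-4290274, - strand) and NOP16 (chr5:176388569-176388718, - strand), whose windows hold no match. Capitals mark CACGTG.
WDR43: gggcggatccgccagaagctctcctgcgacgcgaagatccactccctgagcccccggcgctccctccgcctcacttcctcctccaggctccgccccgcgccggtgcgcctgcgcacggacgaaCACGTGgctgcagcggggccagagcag
FBL: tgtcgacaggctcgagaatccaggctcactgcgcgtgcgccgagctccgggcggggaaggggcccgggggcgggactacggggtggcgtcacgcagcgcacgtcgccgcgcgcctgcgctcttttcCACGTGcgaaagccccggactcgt
MRTO4: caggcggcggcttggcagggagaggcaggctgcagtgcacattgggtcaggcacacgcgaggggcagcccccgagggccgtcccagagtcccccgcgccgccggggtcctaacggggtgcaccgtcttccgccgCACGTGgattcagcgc
LYAR: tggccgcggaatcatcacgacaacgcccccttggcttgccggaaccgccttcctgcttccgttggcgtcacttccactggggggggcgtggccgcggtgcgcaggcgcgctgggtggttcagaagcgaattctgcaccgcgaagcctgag
NOP16: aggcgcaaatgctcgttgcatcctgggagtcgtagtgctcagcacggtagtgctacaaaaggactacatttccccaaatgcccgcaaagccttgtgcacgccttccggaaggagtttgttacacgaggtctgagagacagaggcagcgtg

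The E-box begins 3 bases after the start base in WDR43, 6 in FBL and 14 in MRTO4. Among the 29 measured members with a window, the median log2 difference between inhibitors and PBS was -0.38 for the 12 with the letters (range -0.61 to -0.23) and -0.38 for the 17 without them (range -0.88 to -0.16). The letters therefore did not separate members by the size of the change. A match is a description of the window and was not tested as a binding site.

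Some arrays stood apart and are named before the results. The mean log2 level of the 34 members was 9.25 on the array labelled HaCaT-Mock with scramble siRNA and PBS, inside the range of the HaCaT-Mock inhibitor arrays (8.93 to 9.41), whereas the same treatment gave 9.59 to 9.79 in the other lines. Over all genes its nearest array was HaCaT-Mock cetuximab replicate 1. The array labelled HaCaT-PIK3CA afatinib replicate 1 had a member mean of 9.71, inside the range of the PBS arrays of that line (9.59 to 9.73), and its nearest array was HaCaT-PIK3CA with scramble siRNA and PBS, replicate 1. HaCaT-HRAS gefitinib replicate 1 had a difference of 3.50 between the 3′ and 5′ probe sets of ACTB, a sign of shortened RNA, against at most 1.65 on the other HaCaT arrays. HaCaT-HRAS gefitinib replicate 2 received the lowest weight when arrays were weighted by their scatter (0.02), below replicate 1 (0.0578) and HaCaT-PIK3CA afatinib replicate 1 (0.107). The labels were kept as given. These 3 arrays are called the arrays in doubt, and the counts that moved by over 1.5 times without them are given both ways. Of the keratinocyte markers all 6 lay at or above at least 79.3% of genes in mean level, led by the basal keratins KRT14 (99.6%) and KRT5 (98.4%). The 13 markers of other cell types lay lower, from PTPRC of leukocytes (10.7%) to the fibroblast collagen COL1A1 (62.1%), with the melanocyte marker PMEL at 43.8% and the leukocyte marker CD3E at 38.2%. Such ranks compare different probe sets and are a rough guide.

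**Figure D1:**
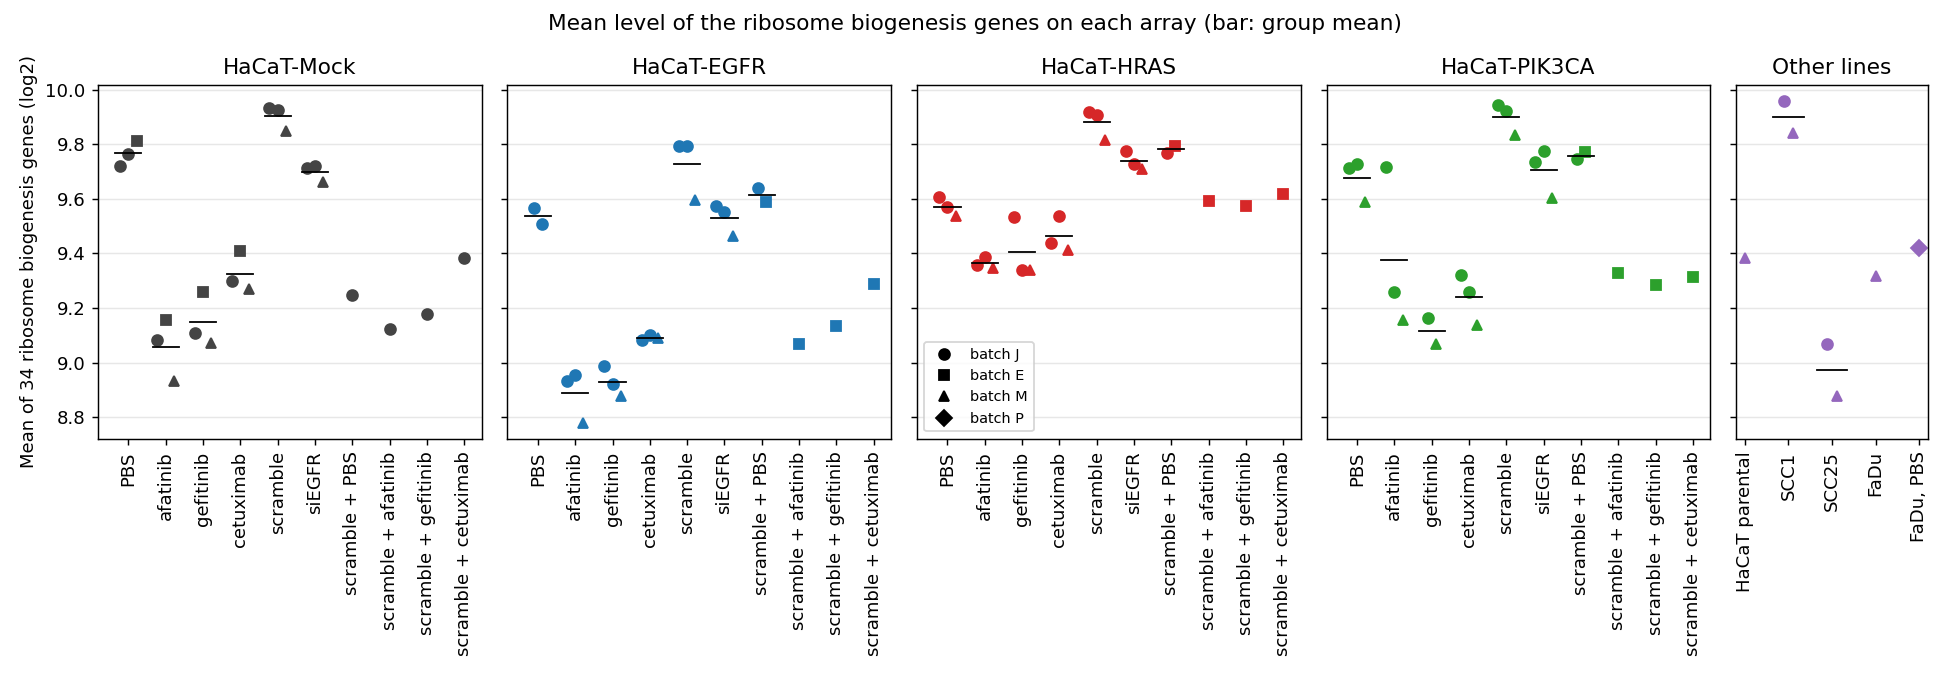
Mean log2 level of the 34 measured ribosome biogenesis genes on each array (y axis), by treatment (x axis) and line (panels); symbols give the array batch and the horizontal bar the group mean. HaCaT-Mock PBS arrays lie between 9.72 and 9.81 and the HaCaT-Mock inhibitor arrays between 8.93 and 9.41, whereas in HaCaT-HRAS the PBS arrays (9.54 to 9.61) and inhibitor arrays (9.34 to 9.54) lie close together.

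Ribosome biogenesis genes fell under EGFR inhibition. Averaged over the 3 inhibitors and the 4 lines (35 inhibitor and 11 PBS arrays), all 34 members were lower, with a median log2 difference of -0.39, which is a level 23.8% lower. Of all genes tested, 19.4% were called lower in this comparison, and of genes at or above the median level 33%. The median over all genes was -0.01. Calls here and below are adjusted p under 0.05 (limma, Benjamini-Hochberg over all genes).

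LYAR, a nucleolar zinc finger protein linked to rRNA processing, had the largest change. Its log2 level was 9.49, 9.76 and 9.43 on the HaCaT-Mock PBS arrays, 8.33, 8.22 and 7.81 with afatinib, 8.35, 8.37 and 8.17 with gefitinib, and 8.73, 8.57 and 8.51 with cetuximab. Every inhibitor array of HaCaT-Mock lay below every PBS array. Over the 4 lines LYAR fell by 0.88 on the log2 scale (SE 0.0442, adjusted p = 2.38e-23), a level 45.6% lower. NOP16, a 60S assembly factor, was at 10.24, 10.25 and 10.45 with PBS in HaCaT-Mock and at 9.0 to 9.87 on the 9 inhibitor arrays, again without overlap. NOP16 fell by 0.69 on the log2 scale over the lines (SE 0.0399, adjusted p = 3.6e-21).

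The abundant nucleolar proteins and chaperones other than LYAR ranged from -0.20 to -0.51. NCL (nucleolin), which binds rDNA chromatin and pre-rRNA, was at 12.48, 12.51 and 12.54 in HaCaT-Mock with PBS and between 11.89 and 12.25 with inhibitors. These HaCaT-Mock groups did not overlap, and over the lines NCL fell by 0.31 (SE 0.0256, adjusted p = 1.74e-15), a level 19.5% lower. NPM1 (nucleophosmin), a nucleolar histone and ribosomal protein chaperone, was at 13.53, 13.59 and 13.60 with PBS and between 13.22 and 13.45 with inhibitors in HaCaT-Mock. The NPM1 change over the lines was -0.20 (SE 0.0273, adjusted p = 1.31e-08), at a level near the highest value on any array (14.5). It was -0.31 with the NPM1 probe set that the selection rule of the study picks. DDX21, an RNA helicase of the nucleolus, and NOLC1, a snoRNP chaperone, fell by 0.47 and 0.51.

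Each step of the pathway was represented. The RNA polymerase I subunits fell by 0.51 (POLR1B) and 0.32 (POLR1C). Among the box C/D proteins, FBL (fibrillarin), the methyltransferase, fell by 0.29 (SE 0.0271, adjusted p = 2.13e-13), NOP58 by 0.38 and RRP9, the U3 snoRNP protein, by 0.32. The FBL arrays of HaCaT-Mock overlapped: 11.07, 10.98 and 11.21 with PBS and 10.57 to 11.02 with inhibitors. Of the box H/ACA proteins, GAR1 fell by 0.37 and NHP2 by 0.16 (SE 0.0298, adjusted p = 5.68e-06). NHP2 overlapped in HaCaT-Mock, at 11.14, 11.04 and 11.32 with PBS and 10.80 to 11.24 with inhibitors.

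The 11 members of the small subunit processome and 40S maturation were all lower, with a median of -0.47. WDR43 (UTP5), a processome subunit, fell most (-0.61, SE 0.0474, adjusted p = 2.77e-16), from 9.39, 9.41 and 9.33 with PBS to between 7.75 and 8.83 with inhibitors in HaCaT-Mock. TSR1, a late 40S maturation factor, fell by 0.53, UTP20 by 0.51, BYSL by 0.49, UTP15 by 0.48, RRP12 by 0.47, UTP4 by 0.39, NOP14 by 0.37, IMP4 by 0.33 and WDR75 by 0.21. NOB1, the endonuclease that makes the final cut of 18S rRNA, had the smallest change of all members (-0.16, SE 0.0294, adjusted p = 1.13e-05). In HaCaT-Mock NOB1 read 9.49, 9.57 and 9.67 with PBS and 9.14 to 9.39 with inhibitors, close but without overlap. In HaCaT-HRAS 6 of the 9 NOB1 inhibitor arrays lay above every PBS array and 1 below every one, so its average joins unlike lines.

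The 60S factors were lower too. In the PeBoW complex WDR12 fell by 0.58 (SE 0.0387, adjusted p = 8.75e-19) and PES1 by 0.23. WDR12 read 10.40, 10.37 and 10.44 with PBS in HaCaT-Mock and 9.17 to 9.96 with inhibitors, without overlap. MRTO4, which prepares the site of the ribosomal stalk, fell by 0.57 (SE 0.0461, adjusted p = 1.11e-15), and RRS1, which takes part in loading the 5S particle, fell by 0.56 (SE 0.0549, adjusted p = 7.13e-13). In HaCaT-Mock MRTO4 read 9.67, 9.74 and 9.87 with PBS and 8.37 to 9.46 with inhibitors. RRS1 was at 9.99, 10.0 and 10.14 with PBS there and at 8.82 to 9.68 with inhibitors. Neither gene's groups overlapped. NIP7, RRP1B, GNL2, WDR74, NOP2 (an rRNA methyltransferase) and FTSJ3 fell by between 0.32 and 0.43. Of 31 other probe sets of the members, 27 pointed the same way as the one used. Another 4, of NOP16, PES1 and RRP12, pointed the other way with log2 differences of at most 0.09.

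**Figure D2:**
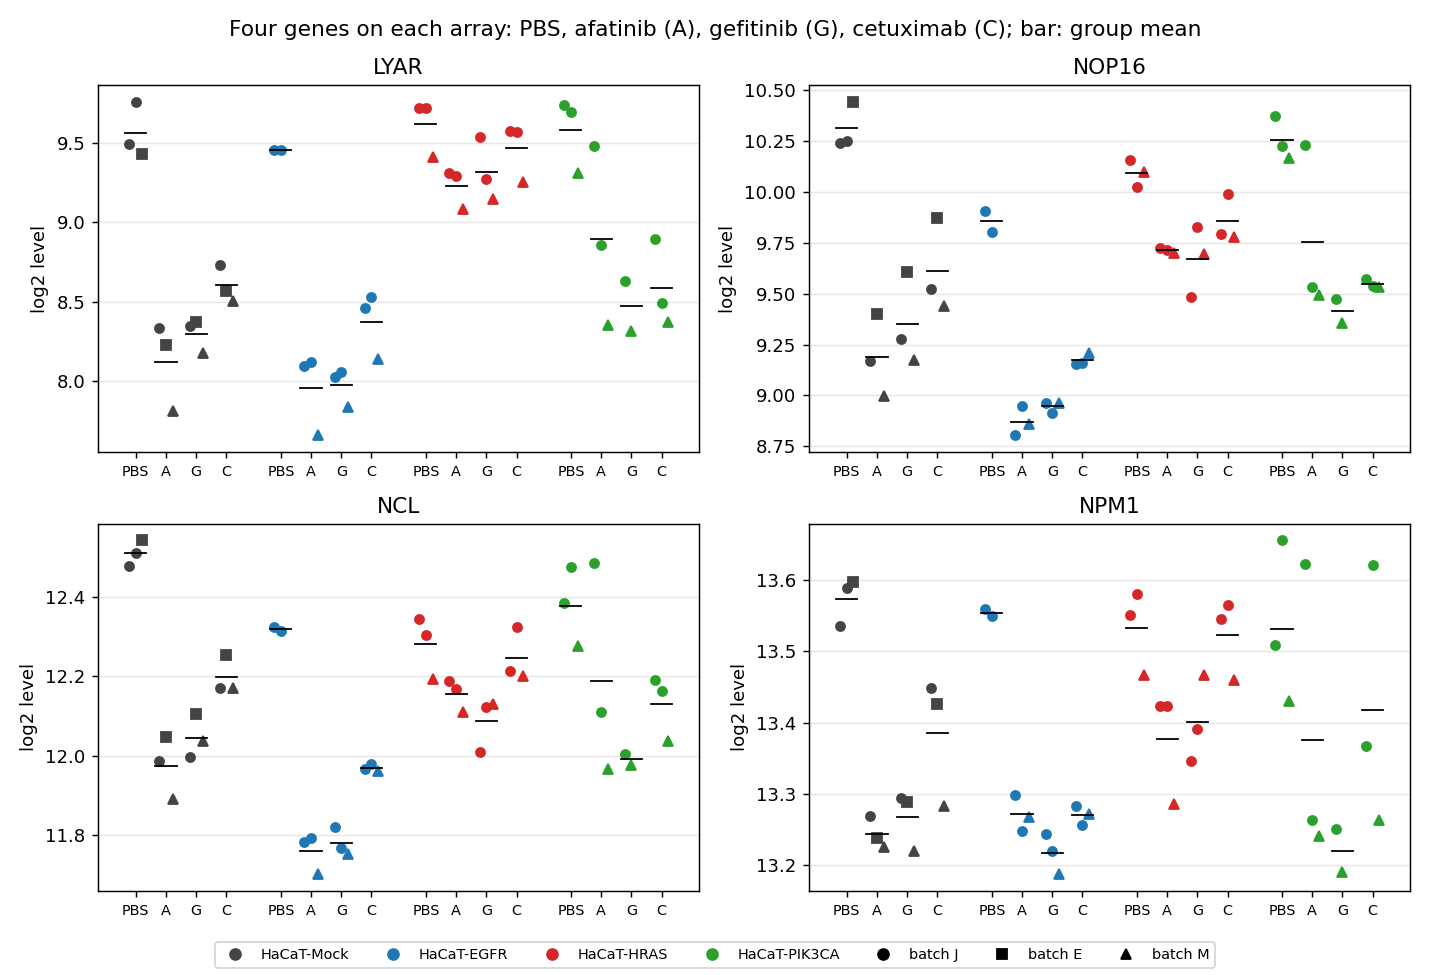
Log2 level of LYAR, NOP16, NCL and NPM1 on each array under PBS, afatinib (A), gefitinib (G) and cetuximab (C), in the 4 HaCaT lines (colours; symbols are array batches, bars group means). In HaCaT-Mock and HaCaT-EGFR every inhibitor array lies below the PBS arrays for all 4 genes. In HaCaT-HRAS the 3 drugs lie closer to PBS, although all 9 inhibitor arrays of NOP16 are below PBS there too. In HaCaT-PIK3CA 1 afatinib array sits at the PBS level.

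The size of the fall depended on the line. In HaCaT-Mock all 34 members were called lower (median -0.54; background 14.2% of all genes), as they were in HaCaT-EGFR (median -0.48; background 12.8%). HaCaT-PIK3CA had 33 called (median -0.43; background 10.1%), all but NHP2 (-0.15, adjusted p = 0.0654). With only the PBS and inhibitor arrays of HaCaT-PIK3CA in the fit the count was 15, for which the share over all genes is not given. In HaCaT-HRAS 6 were called (median -0.15; background 2.2%), 32 of 34 were below 0 and 20 had an unadjusted p under 0.05.

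The 6 called in HaCaT-HRAS were NOP16 (-0.35, adjusted p = 0.00211), WDR12 (-0.33), TSR1 (-0.31), POLR1B (-0.30), WDR43 (-0.29) and LYAR (-0.28). For LYAR the HaCaT-HRAS arrays read 9.72, 9.72 and 9.41 with PBS, 9.31, 9.29 and 9.09 with afatinib, 9.54, 9.27 and 9.15 with gefitinib, and 9.57, 9.57 and 9.26 with cetuximab. Taken without regard to batch, these groups overlapped, unlike those of HaCaT-Mock. The lowest PBS value in HaCaT-HRAS (9.41) came from batch M, and the HaCaT-Mock PBS group held no batch M array. The overlap therefore cannot be compared between these lines. Within batch J and within batch M, every HaCaT-HRAS inhibitor array lay below the PBS arrays of the same batch. LYAR fell by 1.10 in HaCaT-Mock, by 1.23 in HaCaT-EGFR and by 0.91 in HaCaT-PIK3CA. NOP16 fell by 0.91, 0.84 and 0.68 in the same lines. MRTO4 fell by 0.80 in HaCaT-Mock and by 0.77 in HaCaT-EGFR. Its difference in HaCaT-HRAS was -0.20, below the threshold.

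Single arrays were compared as well, without adjusting for batch. The PBS groups of HaCaT-HRAS and HaCaT-PIK3CA each held a batch M array, whereas those of HaCaT-EGFR and HaCaT-Mock held none. Inhibitor arrays of every line included batch M, so these counts are not on equal terms between lines. Members with every inhibitor array below every PBS array numbered 30 in HaCaT-EGFR (15.5% of all genes; only 2 PBS arrays) and 25 in HaCaT-Mock (8.01%). They numbered 2 for HaCaT-HRAS (1.5%) and 3 for HaCaT-PIK3CA (1.9%). Without HaCaT-PIK3CA afatinib replicate 1 the last count was 25 (6.13% of all genes), and the fit called all 34 members lower in that line with a median of -0.48. Without the 3 arrays in doubt, 14 members were called lower in HaCaT-HRAS (2.93% of all genes). With HaCaT-HRAS PBS replicate 3 left out, 1 was, for which the share over all genes is not given.

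The difference between lines was tested directly as a difference of differences. The inhibitor response of HaCaT-HRAS was weaker than that of HaCaT-Mock for 25 of 34 members, with a median difference of 0.39 (4.83% of all genes were called in this direction). The count was 5 with the arrays of batch J alone, for which the share over all genes is not given. The difference was 0.81 for LYAR (SE 0.118, adjusted p = 1.52e-06), 0.60 for MRTO4, 0.56 for NOP16 and 0.54 for UTP4. The smallest differences were those of WDR75 (0.12) and NPM1 (0.14, adjusted p = 0.26), and neither passed. Against HaCaT-Mock, no member was called in HaCaT-EGFR, where 0.0708% of all genes were called in either direction. The median there was 0.02, the smallest adjusted p 0.616, and 1 member had an unadjusted p under 0.05. None was called in HaCaT-PIK3CA either, where 0.142% of all genes were called. In that line the median was 0.14, the smallest adjusted p 0.421, and 6 members had an unadjusted p under 0.05. These tests share the HaCaT-Mock arrays. A p that misses the threshold does not show that 2 lines respond alike.

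**Figure D3:**
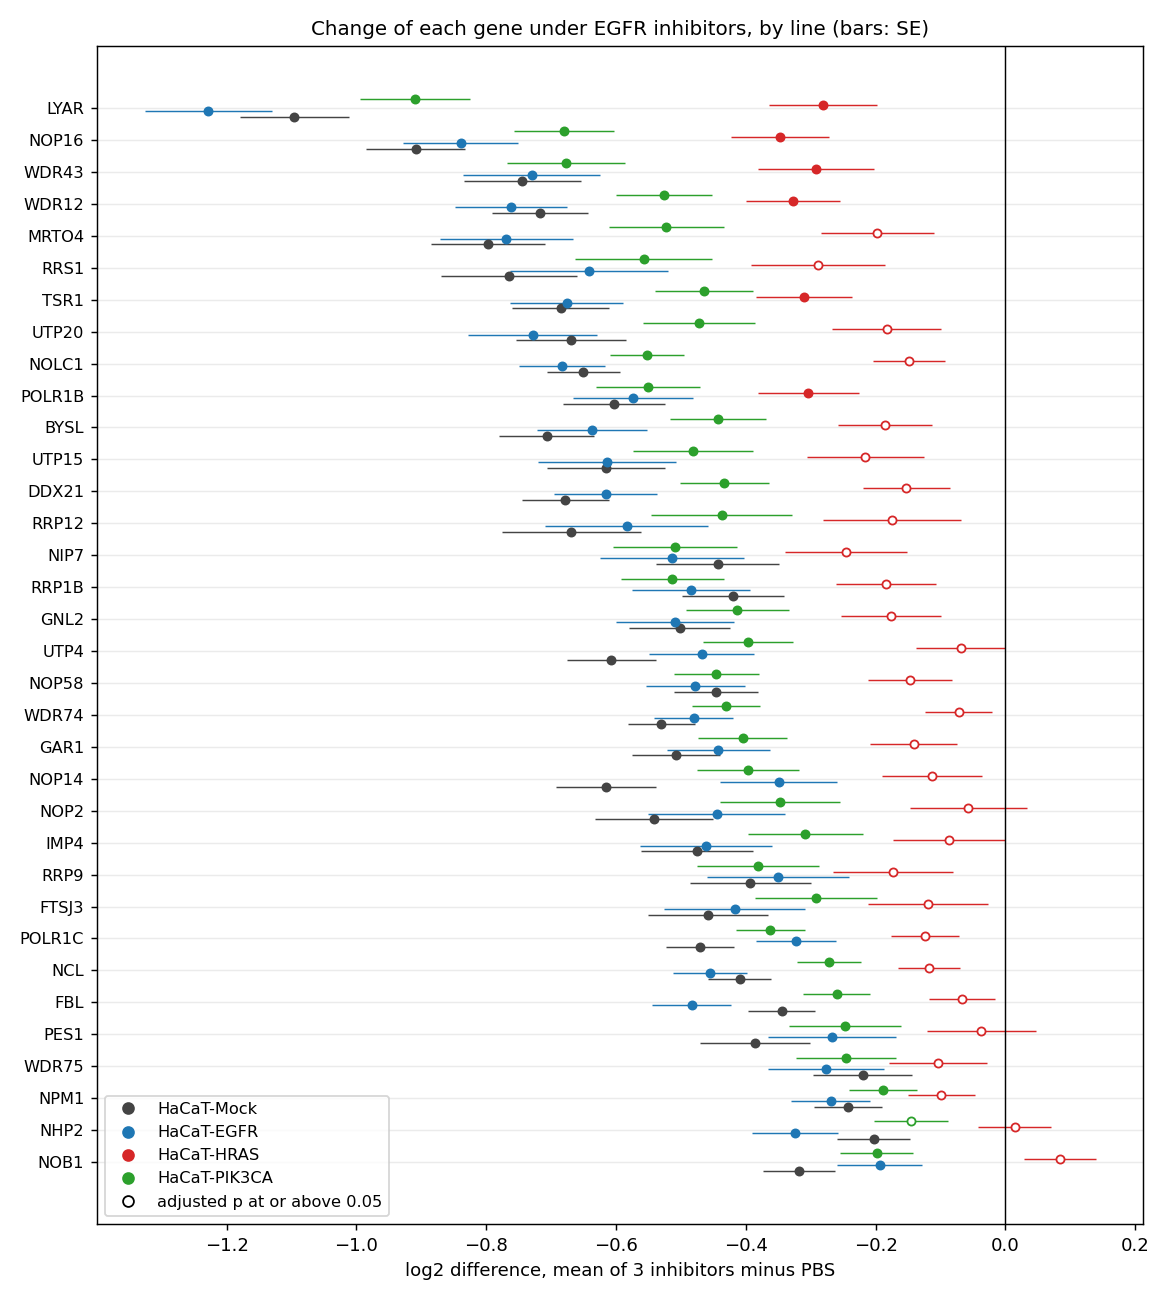
Log2 difference between the mean of the 3 inhibitors and PBS for each of the 34 members (y axis, ordered by the change averaged over lines) in each HaCaT line. LYAR lies at -1.10 in HaCaT-Mock and -1.23 in HaCaT-EGFR but at -0.28 in HaCaT-HRAS, and for every member the HaCaT-HRAS value is the highest of the 4 lines.

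The members fell under each of the 3 drugs. Afatinib at 10 nM lowered 33 of 34 (median -0.43; background 18.1%), gefitinib at 100 nM all 34 (median -0.43; background 18.2%) and cetuximab at 100 nM 33 (median -0.32; background 14.6%). LYAR had the largest fall under each, by 0.94, 0.96 and 0.73. It was followed by NOP16 (-0.74, -0.77 and -0.57) and then by MRTO4 under afatinib (-0.64) and WDR43 under gefitinib (-0.71) and cetuximab (-0.49). NOB1 under afatinib (-0.07, adjusted p = 0.134) and WDR75 under cetuximab (-0.11, adjusted p = 0.0759) were the exceptions. The doses differ in molar terms and in target, and the 3 drugs share the PBS arrays, so their values stand side by side and were not tested against each other.

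Taken line by line, afatinib lowered 34 members for HaCaT-Mock (background 13.8% of all genes), 32 for HaCaT-EGFR (13.7%), 21 for HaCaT-PIK3CA (4.12%) and 5 for HaCaT-HRAS (1.1%). Gefitinib lowered 33 for HaCaT-Mock (11.7%), 32 for HaCaT-EGFR (11.6%), 33 for HaCaT-PIK3CA (8.66%) and 10 for HaCaT-HRAS (7.62%). Cetuximab lowered 28 for HaCaT-Mock (7.35%), 26 for HaCaT-EGFR (5.93%), 30 for HaCaT-PIK3CA (9.05%) and 0 for HaCaT-HRAS (0.172%). Under cetuximab in HaCaT-HRAS the smallest adjusted p was 0.471 and 4 members had an unadjusted p under 0.05. Without the arrays in doubt the afatinib count was 32 for HaCaT-PIK3CA (10.8%) and 17 for HaCaT-HRAS (4.04%). The gefitinib and cetuximab counts for HaCaT-HRAS were then both 2 (0.354% and 1.03%), with 1 gefitinib array left, which the fit takes to vary like the others.

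MYC itself fell by 0.48 over inhibitors and lines (SE 0.0707, adjusted p = 7.62e-08). By drug its difference was -0.23 with afatinib, -0.57 with gefitinib and -0.64 with cetuximab. By line it was -0.67 in HaCaT-Mock and -0.70 in HaCaT-PIK3CA, both called, and -0.32 in HaCaT-EGFR (adjusted p = 0.135) and -0.23 in HaCaT-HRAS (adjusted p = 0.386), neither called. The HaCaT-HRAS value rests largely on gefitinib replicate 1, where MYC read 9.66 against 10.97 on both other gefitinib arrays. Without that array MYC stood at -0.09 in HaCaT-HRAS (adjusted p = 0.736), at -0.47 under gefitinib over lines, and was called in HaCaT-EGFR (-0.31, adjusted p = 0.0313). In HaCaT-EGFR MYC read 10.86 and 10.78 with PBS and 10.81, 10.88 and 11.12 with afatinib, while NCL fell there from 12.32 on both PBS arrays to 11.78, 11.79 and 11.70. The MYC level on the batch E arrays of HaCaT-Mock was low, at 10.31 with PBS against 11.02 and 11.07 on the batch J arrays.

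Members moved together from array to array. Over the 89 HaCaT construct arrays with the batch mean removed, all 561 pairs of members had a correlation above 0, with a median of 0.862 and a range of 0.01 to 0.975. BYSL, NOP16 and NCL followed the mean of the other members most closely (0.979, 0.977 and 0.971), and NOB1 and NIP7 least (0.411 and 0.50). MYC correlated with the member mean at 0.305 (0.336 over the 86 arrays not in doubt). The arrays share lines, treatments and batches, so these values are descriptions.

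Before any inhibitor, few members were called between the constructs and HaCaT-Mock in the fit of all HaCaT construct arrays. Under PBS HaCaT-EGFR had none called, against 0.698% of all genes called in either direction. Its median was -0.20, 33 of 34 were below 0, 17 had an unadjusted p under 0.05 and the smallest adjusted p was 0.0792. Without the arrays in doubt, which are in neither group, 16 were called lower (median -0.20; background 1.74%). HaCaT-PIK3CA had none called, against 0.162% of all genes called in either direction. Its median was -0.05, 3 members had an unadjusted p under 0.05 and the smallest adjusted p was 0.432. HaCaT-HRAS had 7 lower, against a background of 9.34%. They were led by UTP4 (-0.67, adjusted p = 1.09e-08), NOB1 (-0.62, adjusted p = 3.71e-10) and NIP7 (-0.52, adjusted p = 0.000722), followed by FTSJ3, MRTO4, TSR1 and NCL. The first 3 are neighbours on chromosome 16, with promoter windows from bases 69132399 (UTP4), 69339522 (NIP7) and 69754877 (NOB1). Whether they differ as 1 region rather than as ribosome biogenesis genes was not tested. NOB1 read 9.49, 9.57 and 9.67 in HaCaT-Mock and 9.0, 8.93 and 8.96 in HaCaT-HRAS, with no overlap. MYC differed by 0.02 between these lines.

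Under scramble siRNA HaCaT-HRAS again had NOB1 (-0.53, adjusted p = 1.75e-08) and UTP4 (-0.41, adjusted p = 0.000188) lower, and LYAR higher (0.30, adjusted p = 0.0399). The backgrounds were 7.93% lower and 6.96% higher. HaCaT-EGFR had NOP16 (-0.33) and WDR74 (-0.30) lower (background 0.571%). HaCaT-PIK3CA had none called (background 0.0303% in either direction), and none had an unadjusted p under 0.05. Without the arrays in doubt 13 members were lower for HaCaT-EGFR (2.01% of all genes), and 6 were called for HaCaT-HRAS in either direction (20.7%). The EGFR probe set was not called between HaCaT-EGFR and HaCaT-Mock (-0.12, adjusted p = 0.705), and whether it reads the construct is not known.

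Knockdown of EGFR lowered some of the genes. The EGFR transcript fell by 1.92 against scramble siRNA (12 arrays each, adjusted p = 8.13e-37), in HaCaT-Mock from 10.95, 10.78 and 10.20 to 8.72, 8.90 and 7.98. No siEGFR array of any line overlapped a scramble array in EGFR. Of the members 23 were called lower (median -0.19; background 14.1%), and 33 were below 0. MRTO4 fell most, by 0.51 (SE 0.0532, adjusted p = 1.2e-11). It read 10.02, 10.18 and 10.02 with scramble and 9.50, 9.52 and 9.55 with siEGFR in HaCaT-Mock, and 9.94, 9.91 and 9.82 against 9.47, 9.52 and 9.38 in HaCaT-HRAS, so the groups did not overlap in either line. POLR1B fell by 0.40, BYSL by 0.37 and LYAR by 0.36, and both measured Pol I subunits and 9 of 11 small subunit members were called. FBL (-0.05), NOP58 (-0.03), NPM1 (-0.02) and NOLC1 (-0.04) were among the 11 not called, and NIP7 stood at 0.10. MYC fell by 0.32 (adjusted p = 0.00137).

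Per line, siEGFR lowered 12 members for HaCaT-Mock (median -0.24, background 5.36%), 9 for HaCaT-EGFR (median -0.19, background 4.71%), 9 for HaCaT-PIK3CA (median -0.20, background 5.61%) and 4 for HaCaT-HRAS (median -0.13, background 2.69%). Without the arrays in doubt, which received no siRNA, the same medians went with 20 called for HaCaT-Mock (8.78%), 16 for HaCaT-EGFR (7.54%), 17 for HaCaT-PIK3CA (8.76%) and 10 for HaCaT-HRAS (5.26%). The arrays in doubt enter the siEGFR comparisons through the estimate of the spread that all HaCaT construct arrays share. Whether the siEGFR counts differ between lines was not tested. Within batch J 28 to 33 members were below 0 in each line, and within batch M 26 to 33.

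**Figure D4:**
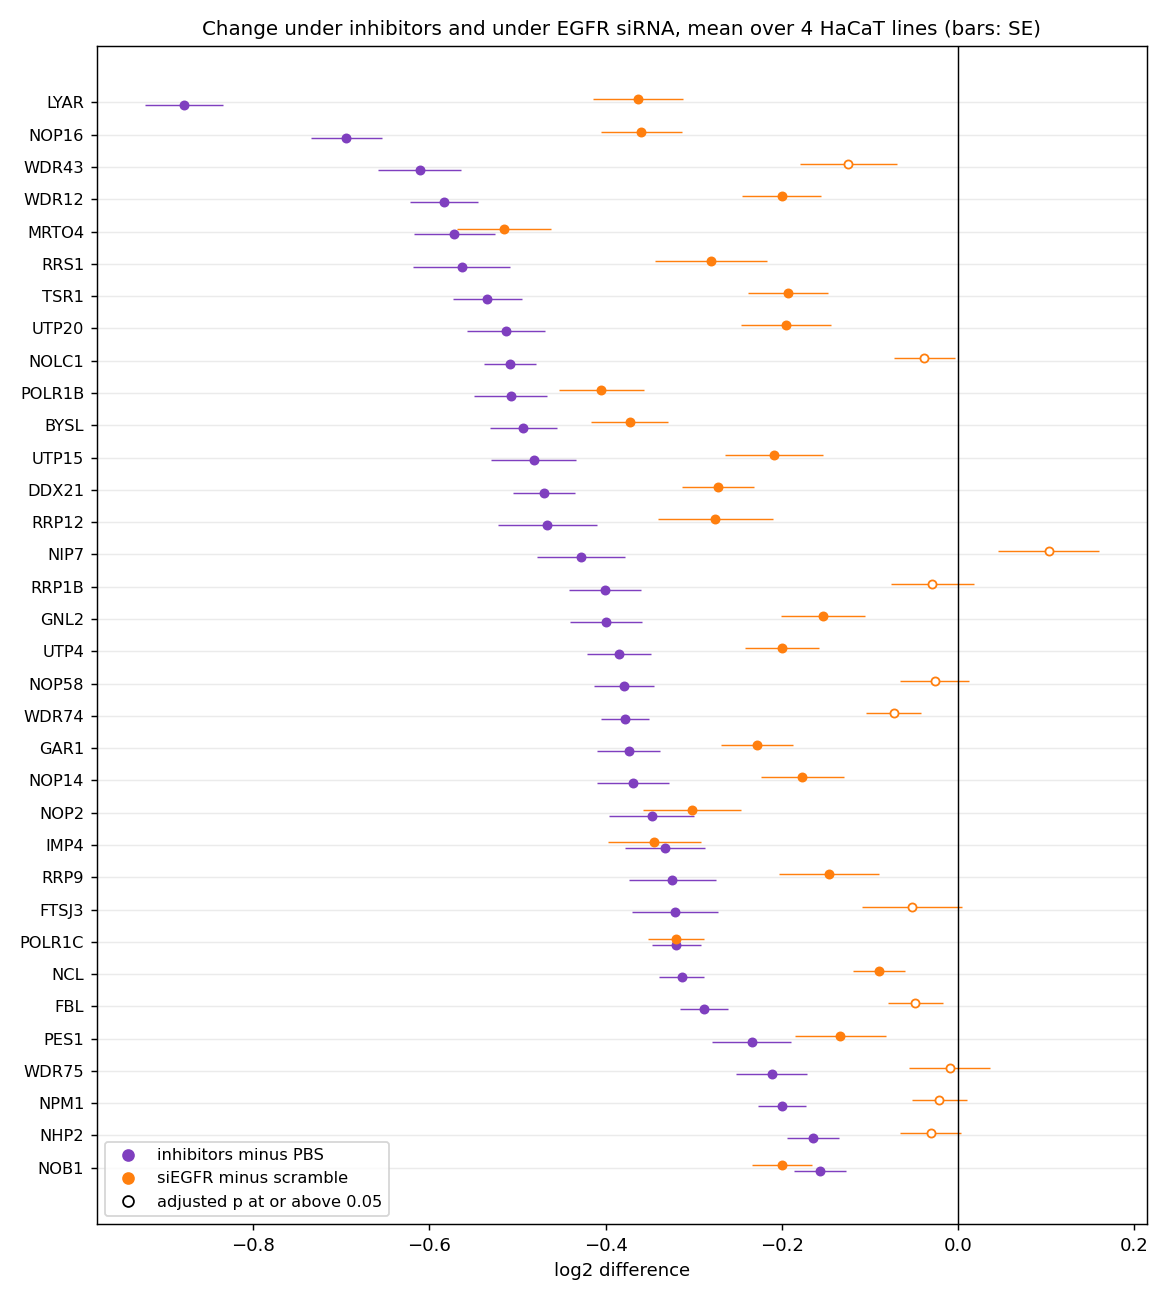
Log2 difference of each member averaged over the 4 HaCaT lines, for the inhibitors against PBS (purple) and siEGFR against scramble siRNA (orange), with SE bars; open points did not pass an adjusted p of 0.05. MRTO4 lies at -0.57 and -0.51, whereas LYAR lies at -0.88 and -0.36 and NPM1 at -0.20 and -0.02.

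The inhibitors were also given together with scramble siRNA, on arrays that the first comparison did not use. Over the 4 lines 31 of 34 members were lower (median -0.29; background 9.05%), with LYAR (-0.60), NOP16 (-0.48) and MRTO4 (-0.43) in front. This average rests in part on the HaCaT-Mock array that stood apart. In HaCaT-Mock, where that array is the only reference, 17 of 34 members were below 0 and the median was 0.02, against 34 in both HaCaT-EGFR (median -0.39) and HaCaT-PIK3CA (-0.45) and 33 in HaCaT-HRAS (-0.21). With HaCaT-Mock left out of the average 33 members were lower, with a median of -0.38 and 12.9% of all genes lower. Batch E alone, with 12 arrays of 3 lines, had all 34 below 0 and 28 called lower (5.75% of all genes).

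By the median of the members, SCC1 and SCC25 lay on either side of the HaCaT constructs under PBS. SCC25 was lower than the HaCaT lines under PBS in 33 of 34 members (median -0.57; background 23.9%), led by RRP1B (-1.32), LYAR (-1.20) and NOP2 (-1.16). PES1 was the exception (-0.24, adjusted p = 0.0563). SCC1 was higher in 21 (background 23.2%) and lower in 2 (background 19.1%), with a median of 0.31. RRS1 (0.97), FTSJ3 (0.89) and PES1 (0.78) were highest, and RRP1B (-0.44) and WDR12 (-0.40) were lower. FBL (-0.02) and NPM1 (-0.09) were not called. PES1 and WDR12, of the same complex, thus lay on opposite sides of the HaCaT constructs in SCC1.

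Compared with each other, SCC1 was higher than SCC25 in 32 of 34 members (median 0.97; background 23.3%). LYAR read 10.15 and 9.67 in SCC1 and 8.56 and 7.92 in SCC25, a difference of 1.67 (adjusted p = 1.78e-17), followed by RRS1 (1.63) and FTSJ3 (1.42). GAR1 and WDR12 (both 0.19) did not pass. MYC went the other way: 10.69 and 10.74 in SCC1 and 11.25 and 11.50 in SCC25 (-0.66, adjusted p = 0.00457). Each line had 1 array in batch J and 1 in batch M, and no drug was given. FaDu had single arrays from batches M and P, with member means of 9.32 and 9.42, and parental HaCaT cells 1 array at 9.38, so neither was tested. The parental array lay below every PBS array of the constructs, the lowest of which was 9.51 in HaCaT-EGFR. The carcinoma lines were not compared with these unmodified cells. The SCC1 member mean was 9.84 and 9.96, and that of SCC25 8.88 and 9.07.

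**Figure D5:**
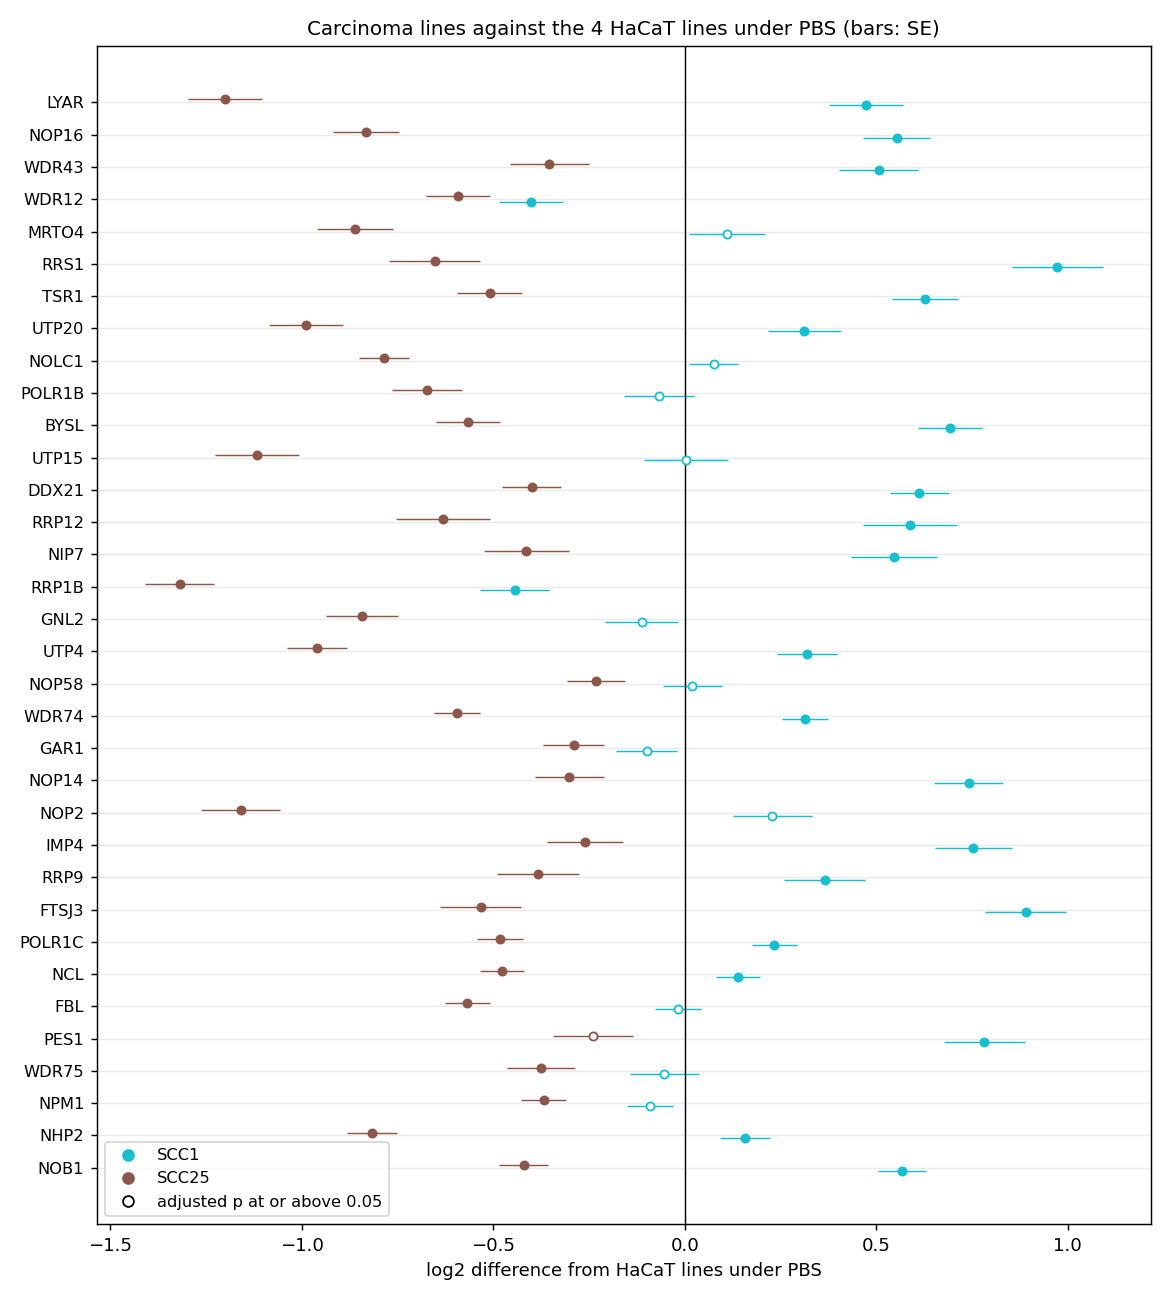
Log2 difference of each member between the carcinoma lines SCC1 (light blue) and SCC25 (brown) and the mean of the 4 HaCaT lines under PBS, with SE bars; open points did not pass an adjusted p of 0.05. All members of SCC25 lie below 0, whereas in SCC1 members range from -0.44 (RRP1B) to 0.97 (RRS1).

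Other genes of the pathway were read from lists that do not overlap the members. Of all genes, 19.4% were called lower under the inhibitors and 39.2% in either direction. Under the inhibitors 67 of 71 other ribosome assembly factors were lower (median -0.28), among them EMG1 (-0.55), UTP18 (-0.47) and RPF2 (-0.54), an rRNA methyltransferase, a processome subunit and a 5S loading factor. Of 13 other genes of the Pol I machinery 9 were lower and 1 higher, with POLR1G, POLR1H and POLR1F at -0.57, -0.27 and -0.32. Ribosomal proteins themselves moved little: of 59, 9 were lower and 11 higher, close to the share over all genes, with a median of 0.02. Many of their probe sets read near the highest value on any array (14.5), such as RPL41 (14.12) and RPS23 (13.99) with PBS. Some read far lower, such as RPL36A (4.61). How far these levels limited the change was not tested. The lowest adjusted p belonged to RPL22L1 and RPL7L1 (both -0.41), which are paralogs of core proteins, and to RPL24 (-0.10). Of 75 mitochondrial ribosomal proteins 63 were lower (median -0.20), with MRPS6 at -0.36, MRPS23 at -0.37 and MRPL47 at -0.28. In HaCaT-HRAS the inhibitors lowered 14 of the 71 assembly factors and 5 of the 75 mitochondrial ribosomal proteins (2.2% of all genes). With siEGFR 43 of the 71 assembly factors were lower and 3 higher. Of all genes 14.1% were called lower there and 28.4% in either direction.

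Other measured features moved with the members, and their part in the result was not tested. The shares of all genes were 19.4% lower and 39.2% in either direction under the inhibitors. With siEGFR they were 14.1% and 28.4%. Of 12 genes of S, G2 and M phase 10 were lower under the inhibitors and 1 higher, with AURKA (-0.52), BUB1 (-0.38) and RRM2 (-0.31) first. With siEGFR, where 23 members fell, 1 of these 12 was lower and 4 were higher. The differentiation markers IVL (involucrin) and KRT1 rose by 1.63 and 1.13 under the inhibitors, and 3 of 4 suprabasal genes were higher. The summed log2 level of those 4 genes was 25.5 to 26.3 with PBS and 28.1 to 32.2 with inhibitors in HaCaT-Mock, and 24.6 to 25.1 and 24.4 to 25.8 in HaCaT-HRAS. Of 6 keratinocyte markers 4 were higher (KRT5 1.06, DSG3 0.73, KRT14 0.52) and LAMB3 was lower (-0.21). In the MYC network 5 of 7 genes were higher, with MXD1 at 0.72 and MXD3 at 0.24, partners of MAX that oppose MYC, and MYC and MLX (-0.20) were lower. Of 13 markers of other cell types 4 were higher and 2 lower, not far from the share over all genes, with CDH5 at 0.60, COL3A1 at 0.49 and PMEL at 0.16. These genes read low with PBS (3.92, 3.95 and 5.51), below the median gene (6.10).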

How the data were processed

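Gene expression of 96 samples was measured on Affymetrix arrays in batches J (53 arrays), M (26), E (16) and P (1), as the labels name them. The deposited table gives 1 log2 value per probe set and array. The authors' methods name fRMA normalization, batch correction by permuted surrogate variables and removal of outlying arrays found by clustering, and the submitters' processing notes name affy. How far these steps went into the deposited log2 table is not stated in the sources used, and batch was kept in the model. An incomplete correction would add spread between batches, and a normalization to a common distribution hides changes shared by all genes.

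Of 54675 probe sets 41097 had 1 gene symbol in the platform annotation, 1801 had several and 11777 were not listed. The brightest probe set (mean of the HaCaT constructs) stood for each of 19775 genes. No filter on low values was applied. A linear model with terms for group and batch was fitted to all 89 HaCaT construct arrays with limma 3.58.1 in R 4.3.3 (47 residual degrees of freedom). Its comparisons share the batch terms and 1 estimate of the spread per gene, so arrays outside a comparison can change its calls. A model of 95 arrays, without the batch P array, gave the carcinoma comparisons. P-values were adjusted by Benjamini-Hochberg across all genes, separately in each comparison. The steps were tested on simulated data for the inhibitors averaged over lines only, with independent noise and no line differences or outlying arrays. The comparisons by line, between lines, of siRNA and of carcinoma lines were not simulated. The labels do not say whether replicates came from separate cultures, so p-values measure the spread between these samples, which may be technical. The number of arrays limits the precision.

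The members, gene lists and tests were chosen with earlier results of these data known. The text gives array values for FBL, NCL, NPM1 and the members with the 6 largest and 2 smallest changes over lines, the 3 called members with the largest change in each other comparison, MYC, and the 3 genes of each other list with the lowest adjusted p. Alternatives tried were the probe set rule of the study, quantile normalization, leaving out dim genes, array weights, batch J alone, fits of only the compared groups, the replicate number as a block, and leaving out arrays. Promoter windows came from a RefSeq table (GRCh38.p14).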

Additional observations from a re-analysis of the deposited data

Results flagged for a closer look

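The response to the inhibitors differed between HaCaT-HRAS and HaCaT-Mock, by the contrast of the 2 responses in limma, for 25 members. Of all genes 9.53% were called in either direction. Among the genes followed array by array, the response in HaCaT-HRAS minus that in HaCaT-Mock was 0.81 for LYAR, 0.60 for MRTO4, 0.56 for NOP16, 0.48 for RRS1, 0.45 for WDR43, 0.40 for NOB1, 0.39 for WDR12, 0.29 for NCL and 0.28 for FBL on the log2 scale. Without HaCaT-HRAS gefitinib replicates 1 and 2 and HaCaT-PIK3CA afatinib replicate 1 it was called for 29 members, with 14% of all genes called in either direction. With batch J arrays alone it was called for 5. That last count stands without the share over all genes, so it cannot tell a change in the members from one over all genes. No group held more than 3 arrays, so single arrays were not tested against the rest of their group.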

How the results depend on the processing

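No comparison with calls turned to calls mainly the other way, but for siEGFR, with 23 lower and 0 higher, 2 members were called higher under the probe set rule of the study and 1 with array weights. The counts for the inhibitors, for each drug and for siEGFR averaged over lines, for the inhibitors in HaCaT-Mock and HaCaT-EGFR, and for the carcinoma lines stayed within 1.5 times under the alternatives run for them. In 5 of 190 alternatives other than left-out arrays, and in 5 of 325 fits without 1 array, the median of the members took the other sign. These were the HaCaT-HRAS and HaCaT-PIK3CA comparisons under scramble siRNA and the HaCaT-EGFR difference from HaCaT-Mock in inhibitor response, where the median was -0.01 to 0.02. For inhibitors in HaCaT-HRAS (6 members called) the count was 0 with batch J arrays only, 1 with only the compared groups in the fit, 10 with arrays weighted by quality and 14 after dropping HaCaT-HRAS gefitinib replicates 1 and 2 and HaCaT-PIK3CA afatinib replicate 1 (the arrays in doubt). Leaving out 1 array gave 1 to 10, the lowest without HaCaT-HRAS PBS replicate 3 and the highest without HaCaT-HRAS gefitinib replicate 1 (2.41% of all genes lower). For the difference of that response from HaCaT-Mock (25) it was 5 with batch J only and 17 to 28 without 1 array. For inhibitors in HaCaT-PIK3CA (33) it was 15, and for inhibitors with scramble siRNA (31) it was 17, with only the compared groups.

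For HaCaT-HRAS against HaCaT-Mock under PBS (7) the count was 3 with batch J only, 12 with array weights and 3 to 6 without 1 array. Under scramble siRNA (3) it was 5 with only the compared groups, 9 with array weights, 6 without those in doubt and 2 with any 1 array left out. For HaCaT-EGFR against HaCaT-Mock under PBS (0) it was 18 with array weights, 16 without those in doubt and 2 without dim genes. Under scramble siRNA (2) it was 0 with batch J only, 0 with only the compared groups, 17 with array weights, 13 without those in doubt and 1 with any 1 array left out. Without those in doubt it was 20 for siEGFR in HaCaT-Mock (12), and for siEGFR 16 with HaCaT-EGFR (9), 17 with HaCaT-PIK3CA (9) and 10 with HaCaT-HRAS (4). For single drugs it was 32 for afatinib in HaCaT-PIK3CA (21), and for HaCaT-HRAS 17 with afatinib (5), 2 with gefitinib (10) and 2 with cetuximab (0). Arrays outside a comparison enter it through the shared spread and batch terms, and other causes of these moves were not tested. Many counts from alternative fits, here and above, stand without the share over all genes. Such a count cannot tell a change in the members from a change over all genes. The comparison of inhibitors with scramble siRNA could not be fitted in batch J alone. Batch E alone, the scramble average without HaCaT-Mock, and leaving out arrays for single drugs, for siEGFR per line and for MYC per line, were chosen after seeing the data.

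Samples of the same replicate number did not deviate together (median correlation 0.01 over 151 pairs, against -0.01 over 129 pairs of different numbers), so the numbers were not taken as pairs. With the replicate number as a block the count for HaCaT-HRAS against HaCaT-Mock under PBS was 4, and the other counts stayed within 1.5 times.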
